A study of Homo sapiens with 6 samples.

Results

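The enzymes that make cholesterol and fatty acids, and the proteins that switch their genes on, were followed in RH36 cells given a precursor of miR-27a. The 30 genes were chosen by name and comprise 16 genes of sterol synthesis and transport, 5 genes of the SREBP control system, 7 genes of fatty acid synthesis and 2 genes of lipid uptake, out of 27328 gene names measured. Every probe that carries one of these names in the array files was taken, which gave 47 probes, all of which passed the filter. RH36 is an embryonal rhabdomyosarcoma (ERMS) cell line, a muscle-lineage tumour line without the PAX3/FOXO1 translocation. All cells shared this line and its serum-containing medium. The pre-control group (n = 3) received a negative control precursor and the pre-miR-27a group (n = 3) received the miR-27a precursor, both transiently, so the cells of a culture need not all have taken up the precursor. According to the labels the dose was 10 nM, and RNA of the pre-miR-27a group was taken 48 hours after transfection. The paper's methods give another dose, reagent and time, and which of them applies to these arrays was not settled. The labels call the samples biological replicates 1, 2 and 3 of each group and do not say whether they came from separate days.

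Cholesterol is built from acetyl-CoA through mevalonate, isoprenoids, squalene and lanosterol, and fatty acids are built from the same acetyl-CoA through malonyl-CoA. Both branches are driven by the sterol regulatory element-binding proteins (SREBPs), transcription factors that are made as membrane proteins of the endoplasmic reticulum. When sterols are scarce the escort protein SCAP carries them to the Golgi, where they are cut free, and when sterols are plentiful the INSIG proteins hold SCAP back. In muscle-lineage cells as elsewhere, these genes are known to respond together to the supply of sterols and lipids. MiR-27 has been studied as a regulator of lipid metabolism in other cells.

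The mature miRNAs are shown because the seed, the stretch that pairs with target mRNAs, defines the family that the precursor adds to. The seed (bases 2 to 8) is in capitals, and the sequences are those of RefSeq on GRCh38.p14.
hsa-miR-27a-3p: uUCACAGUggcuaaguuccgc
hsa-miR-27b-3p: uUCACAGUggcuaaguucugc
MiR-27a-3p is encoded at chr19:13836447-13836467 on the minus strand and miR-27b-3p at chr9:95085505-95085525 on the plus strand. Both are 21 bases long in the table and share the seed. The level of miR-27a in these cells is not part of the values used here, and no target site was searched in the 30 mRNAs.

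Gene expression was measured with 1 Cy3-labelled sample per array. Each array held 43376 spots other than controls, of which none was saturated and 69.9% to 78% were well above background. The median background was 74.5 to 76 on pre-control and 52.5 to 53 on pre-miR-27a arrays. Spots without the found flag numbered 1559 to 1750 on pre-control and 3487 to 4153 on pre-miR-27a arrays. All 30 genes were well above background on all 6 arrays by their brightest probe, the one with the highest mean signal, which stands for the gene below. The pre-control arrays lay on slide 1 and the pre-miR-27a arrays on slide 2, and on both slides the position of an array equals its replicate number. Slide and transfection cannot be told apart, nor can replicate number and position. The muscle lineage was checked on 12 markers, of which 11 had a kept probe, and these 11 were well above background on every array. In pre-control samples the mean log2 signal of those 11 markers was 13.09 to 13.93, and in pre-miR-27a samples it was 12.89 to 13.76. Of the 10 adipocyte markers, 5 were well above background on all arrays and 4 on none (LEP, PLIN1, FABP4 and RETN), and of 8 macrophage markers with a kept probe 4 were on all and 3 on none (PTPRC, AIF1 and CSF1R).

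The question of the comparison was how transfection with pre-miR-27a changes mRNA levels, and here whether the sterol and fatty acid branches answered differently. No member passed the test: 0 of 30 were called higher and 0 of 30 were called lower in pre-miR-27a arrays by limma with an adjusted p under 0.05. Over all 36469 probes kept, 3.95% were called higher and 3.88% lower. At an unadjusted p under 0.05 there were 2 of 30 members, PMVK and SREBF1, against 24.8% of all probes, and SAM called 0 members at false discovery rates of 1.9% and 5%. SAM, run unpaired, called few probes at all: 0.0247% higher and 0% lower at 1.9%, and 1.99% higher and 0.0411% lower at 5%. The largest differences between samples in these genes lay elsewhere. They separated the replicate numbers, in the same way in both transfections.

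**Figure D1:**
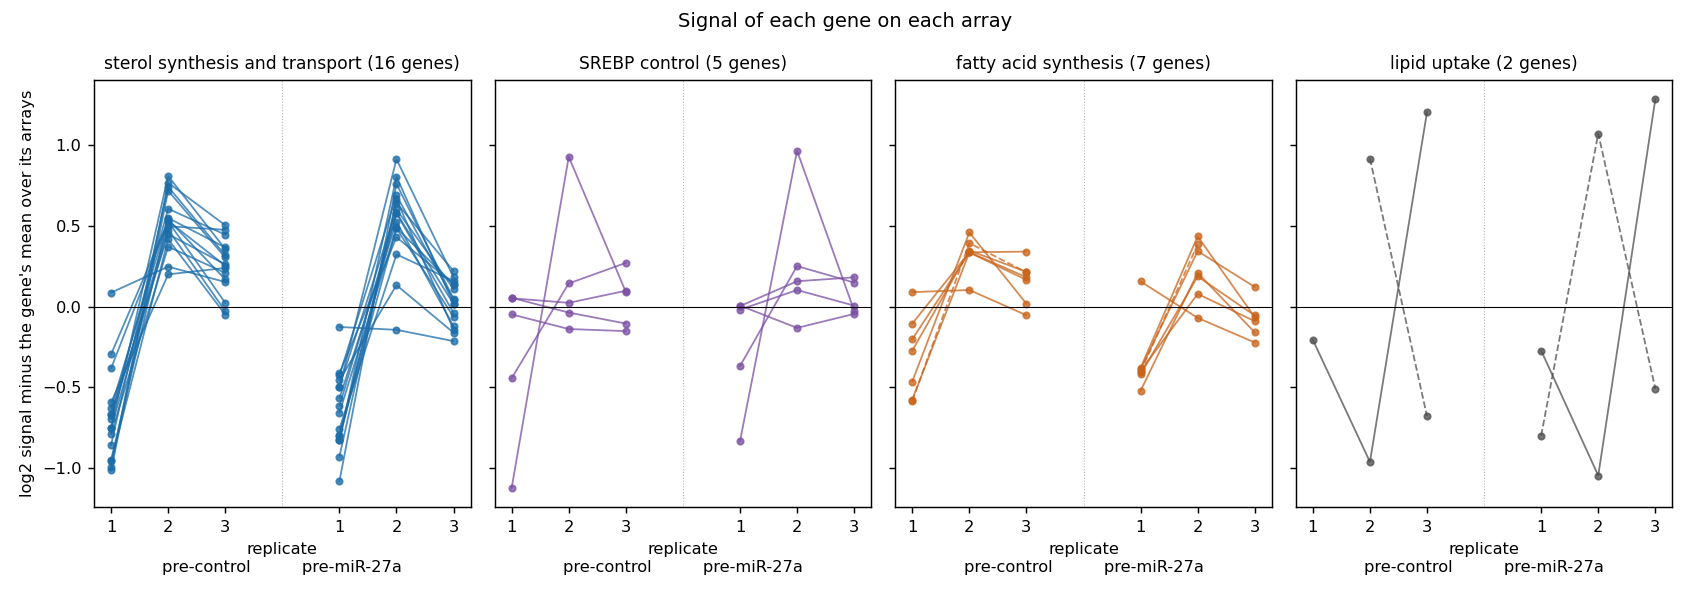
Log2 signal of each of the 30 genes on each array, minus that gene's mean over its arrays (vertical axis, log2 units), by replicate within pre-control and pre-miR-27a (horizontal axis), in 4 panels by role. Lines only tie the points of 1 gene within a group, and dashed lines mark the 2 genes with a missing array. Of the 16 sterol genes, 14 lie lowest in replicate 1 and highest in replicate 2 in both groups.

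Among the 28 members with a value on all 6 arrays, 19 had their lowest signal in replicate 1, a middle one in replicate 3 and their highest in replicate 2, in pre-control and again in pre-miR-27a arrays. The same order in both groups was found for 7.45% of the 31717 probes with all values. The 19 were 14 of 16 sterol genes, 4 of the 6 fatty acid genes with all values, and INSIG1. In the fit over both groups, replicate 2 was at least 1 log2 unit above replicate 1 for 15 of 30 members, among them 13 of 16 sterol genes, against 1.73% of all probes. The median of this difference was 1.18 log2 units over the sterol genes and 0.64 over the fatty acid genes, against 0.01 over all probes. A limma F test of the replicate number beside the group, added after the pattern was seen, called 0 of 30 members and 0% of probes at an adjusted p under 0.05, since its lowest adjusted p for any probe was 0.0721. At an unadjusted p under 0.05 it found 25 of 30 members, against 26.9% of probes. With a variance trend and robust estimation, 25 of 30 members passed with adjustment, against 13.4% of probes, and 25 passed with normexp background correction (15.6% of probes) and with only probes well above background (15.5%). With the positive and significant flag 16 of 30 members passed, against 3.18% of probes, and with the deposited values 16, against 3.32%.

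**Figure D2:**
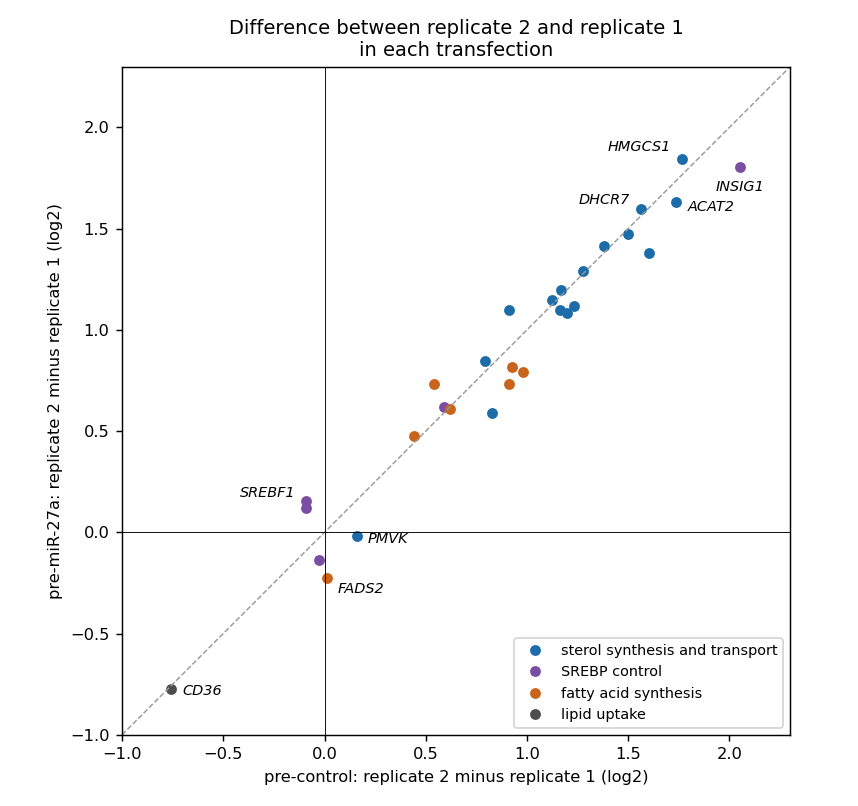
Log2 signal of replicate 2 minus replicate 1 in pre-control (horizontal axis) and in pre-miR-27a (vertical axis), 1 point per gene, coloured by role, with a dashed line of equality. LPL has no value on 1 array and is left out. Most sterol genes lie near the line above 1, the fatty acid genes other than FADS2 between 0.4 and 1, and CD36 below 0 on both axes.

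Within the sterol branch the first enzymes showed the largest of these differences. ACAT2, the thiolase that joins acetyl-CoA units, had log2 signals of 13.86, 15.59 and 15.18 in pre-control replicates 1 to 3 and 14.04, 15.68 and 14.89 in pre-miR-27a replicates 1 to 3. HMGCS1, the cytosolic HMG-CoA synthase, had 12.05, 13.81 and 13.55 in pre-control and 11.96, 13.81 and 13.09 in pre-miR-27a arrays. In both genes replicate 1 stood far below the other replicates in each group, while same-numbered arrays of the groups lay close together and the groups overlapped. Replicate 2 over replicate 1 came to 1.68 ± 0.15 log2 units (SE) for ACAT2 and 1.80 ± 0.14 (SE) for HMGCS1.

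Of the kinases and decarboxylase that turn mevalonate into isoprenoid units, all but PMVK followed the same order. MVK, mevalonate kinase, had log2 signals of 12.83, 13.96 and 13.77 in pre-control and 12.85, 13.997 and 13.65 in pre-miR-27a arrays. MVD, which removes the carboxyl group, had 10.39, 11.99 and 11.57, and 10.45, 11.83 and 11.26. PMVK, the phosphomevalonate kinase between them, had 12.45, 12.61 and 12.52 in pre-control and 12.24, 12.22 and 12.15 in pre-miR-27a arrays. PMVK was thus nearly level across replicates, with replicate 2 above replicate 1 by 0.07, and it is one of the members whose groups did not overlap. IDI1, the isopentenyl diphosphate isomerase, had 12.41, 13.78 and 13.32 in pre-control and 12.86, 14.28 and 13.55 in pre-miR-27a arrays, higher in each same-numbered pair of the latter. FDPS, which makes farnesyl diphosphate, had 15.02, 16.19 and 15.82 in pre-control and 15.03, 16.23 and 15.61 in pre-miR-27a arrays. For FDPS the pairs differed by less than the replicates did.

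At the squalene and lanosterol steps replicate 1 was again the lowest array. FDFT1, squalene synthase, had log2 signals of 13.79, 15.29 and 15.11 in pre-control and 13.91, 15.38 and 14.96 in pre-miR-27a arrays. SQLE, squalene epoxidase, had 14.19, 15.36 and 15.19, and 14.49, 15.59 and 15.09. LSS, which closes the ring to lanosterol, had 13.60, 14.39 and 14.43 in pre-control and 13.78, 14.62 and 14.33 in pre-miR-27a arrays. Replicate 2 exceeded replicate 1 in these genes by 1.49, 1.13 and 0.82 log2 units, and for LSS replicate 3 was the highest of the pre-control arrays. CYP51A1, the lanosterol demethylase, gave a difference of 1.28 log2 units between the same replicates.

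Among the late enzymes the difference ran from 0.71 to 1.58 log2 units. Replicate 2 minus replicate 1 was 1.14 log2 units for TM7SF2, a sterol reductase, 1.00 for NSDHL, a sterol dehydrogenase, 0.71 for EBP, a sterol isomerase, and 1.58 for DHCR7, which makes the last reduction to cholesterol. STARD4, a sterol transport protein, gave 1.17. DHCR7 had log2 signals of 13.82, 15.39 and 14.94 in pre-control and 13.65, 15.24 and 14.43 in pre-miR-27a arrays, so the pre-miR-27a value was lower in each pair although the groups overlapped. Over the whole sterol branch, 15 of 16 genes were higher in replicate 2 than in replicate 1 in both groups, with PMVK the exception.

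The genes of the control system differed among themselves. INSIG1, the sterol-induced retention protein, had log2 signals of 9.28, 11.34 and 10.498 in pre-control and 9.57, 11.37 and 10.38 in pre-miR-27a arrays. Its difference of 1.93 log2 units between replicates 2 and 1, a 3.81-fold difference in signal, was the largest between these replicates among the 30 genes. INSIG2, its relative with the same role, had 10.55, 10.46 and 10.39, and 10.48, 10.60 and 10.501. SCAP differed by -0.08 log2 units between replicates 2 and 1 and SREBF1, which encodes SREBP-1, by 0.03. SREBF2, which encodes SREBP-2, lay between, with 12.09, 12.68 and 12.80 in pre-control and 12.16, 12.79 and 12.68 in pre-miR-27a arrays. Replicate 1 was the lowest array of each group for SREBF2.

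In the fatty acid branch replicate 2 exceeded replicate 1 for 6 of 7 genes, by 0.46 to 0.89 log2 units. ACLY, which supplies cytosolic acetyl-CoA, had log2 signals of 12.41, 12.95 and 12.95 in pre-control and 12.09, 12.82 and 12.45 in pre-miR-27a arrays. FASN, the fatty acid synthase, had 9.10, 9.72 and 9.59, and 8.96, 9.56 and 9.32, so each pre-miR-27a array lay below its same-numbered pre-control array while the groups overlapped. SCD, the desaturase that makes oleate, had 12.75, 13.66 and 13.49, and 12.94, 13.67 and 13.45. Replicate 2 minus replicate 1 was 0.87 log2 units for ACACA, which makes malonyl-CoA, 0.89 for ELOVL6, an elongase, and 0.46 for FADS1, the delta-5 desaturase. ELOVL6 had no value on pre-miR-27a replicate 3, and its fit rests on 5 arrays. FADS2, the delta-6 desaturase, was the exception, with 10.32, 10.33 and 10.18 in pre-control and 10.39, 10.16 and 10.01 in pre-miR-27a arrays.

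The uptake genes differed from each other, and of them only CD36 went against the order of most sterol genes. LPL, the lipoprotein lipase, had no value on pre-control replicate 1 and log2 signals of 8.49 and 6.89 on replicates 2 and 3, against 6.77, 8.64 and 7.06 in pre-miR-27a arrays, so replicate 2 alone was high in both groups. CD36, the fatty acid transporter, had 12.21, 11.45 and 13.62 in pre-control and 12.14, 11.37 and 13.70 in pre-miR-27a arrays. CD36 was thus lowest in replicate 2 and highest in replicate 3 of both groups. The same order in both groups was found for 4 of the 11 muscle lineage markers (MYF6, DES, MYH3 and ACTC1), against 5.83% of probes. The list was mixed: replicate 2 was above replicate 1 for 6 of the 11 markers and replicate 3 above replicate 1 for 9. The mean log2 signal of the 11 was highest in replicate 3 of both groups, and its low in replicate 2 rested on MYF6, since over the other 10 the pre-control means were 13.59, 13.63 and 14.22 and the pre-miR-27a means 13.44, 13.44 and 14.03. What part these marker levels have in the CD36 values was not tested.

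Ranked by the largest difference between replicate numbers among the 27057 probes well above background on all arrays, CD36 stood at place 36, INSIG1 at 85, LPL at 97 and HMGCS1 at 115. Of the 30 genes, 12 were in the first 500 places. At the other end, FADS2 differed by 0.26 log2 units, SCAP, PMVK and INSIG2 by 0.08 each and SREBF1 by 0.04, against a median of 0.26 over those probes. Spiked-in control RNAs, 8 in number, differed by 0.15 to 0.36 log2 units between replicates 2 and 1 after scaling to the 75th percentile. Their differences between the groups, pre-miR-27a minus pre-control, ran from -0.116 to 0.377 log2 units. What part the array position or the labelling has in the replicate differences was not tested. Whether the differences are unequal in the 2 transfections could not be fitted, because that model leaves no residual degrees of freedom. The median of replicate 2 minus replicate 1 was 1.21 log2 units in pre-control and 1.17 in pre-miR-27a arrays for the sterol genes, and 0.62 and 0.73 for the fatty acid genes.

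Promoter windows are shown because members that moved together across replicates can be compared in the letters SREBPs and their partner NF-Y are known to bind. RefSeq windows on GRCh38.p14, from 250 bases before to 50 after a gene start, were held for 25 of the 30 genes; ACAT2, FDFT1, SQLE, FASN and LPL had none. The SRE-type motif TCACNCCAC, searched on both strands, was in the windows of 1 of 25 members, SREBF2, and of 1.39% of the 27305 genes in the table. Its core CACNCCAC, which overlaps it, was in 5 of 25 (SREBF2, INSIG1, IDI1, ACACA and SCD), against 7.05% of genes. CCAAT, the letters of the NF-Y box, was in 18 of 25, against 39.7% of genes, and in 11 of 13 sterol and 4 of 6 fatty acid genes. In the windows below, read along the gene's strand, capitals mark the SRE-type motif of SREBF2 and, for the 5 genes with a promoter window and the largest replicate differences in synthesis or its control, the CCAAT box nearest the gene start, which reads ATTGG when it lies on the opposite strand.
SREBF2: acgcgccaTCACCCCACgcaccgct
INSIG1: ggcctcccATTGGttgcggcc
HMGCS1: cggccgcgATTGGctgtggga
DHCR7: cgcctccgATTGGcaggcaat
MVD: cgcacgggCCAATcctgtggt
IDI1: cgcgagcgATTGGctgcgcgg
These lie at chr22:41832964-41832988 (plus strand), chr7:155297700-155297720 (plus), chr5:43313500-43313520 (minus), chr11:71448429-71448449 (minus), chr16:88663164-88663184 (minus) and chr10:1048961-1048981 (minus), in that order. No CCAAT was found for PMVK, SCAP, INSIG2 and SREBF1, whose replicates 2 and 1 differed by less than 0.1 log2 units, nor for CYP51A1, ELOVL6 and FADS1, for which that difference was 1.28, 0.89 and 0.46. FADS2 had 1 match and CD36 had 1. A match in a window is a description of its letters, and genes with several starts have more windows in which to find one.

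**Figure D3:**
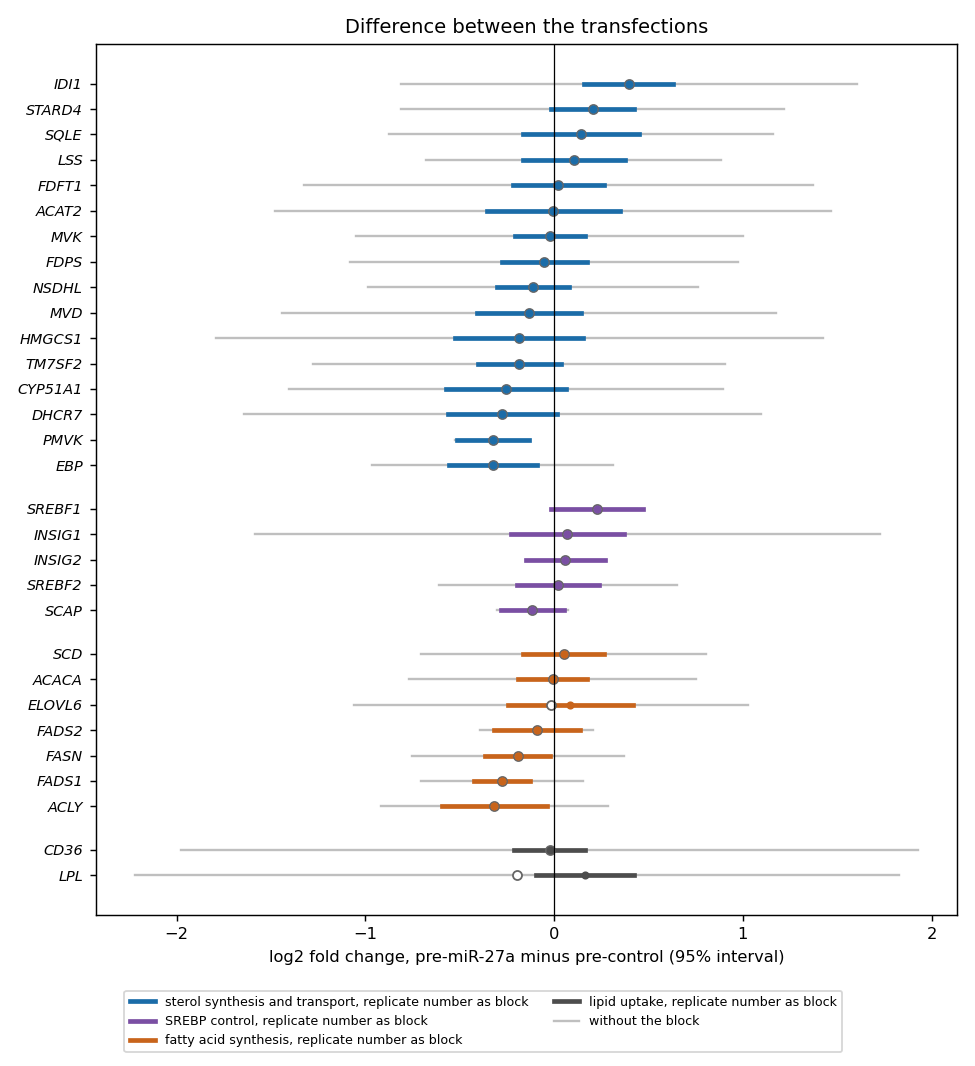
Log2 fold change of each gene, pre-miR-27a minus pre-control (horizontal axis, log2 units), with its 95% interval from limma without the replicate block (grey line, open circle) and with it (coloured line, filled circle), sorted within roles. The grey intervals of most sterol genes pass 1 log2 unit, and all 30 coloured intervals lie between -0.60 and 0.63.

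Against this spread the differences between the transfections were small. The log2 fold changes (pre-miR-27a minus pre-control) ran from -0.33 to 0.40, with 10 members above 0 and 20 below, and their median was -0.04, against -0.02 over all probes. Their median standard error was 0.40, against 0.14 over all probes. The groups did not overlap for 3 of the 28 members with all values, PMVK, SCAP and SREBF1, against 32.7% of probes, and 14 of the 28 had the same direction in all 3 same-numbered pairs, against 63% of probes. Once the replicate number was fitted as a block, the median standard error was 0.08 for the members and for all probes alike, and again 0 members were called higher and 0 lower, against 7.24% and 7.62% of probes. In that fit 6 members had an unadjusted p under 0.05, against 37.3% of probes. Of markers of other cell types, limma called 1 of 10 adipocyte markers (ADIPOQ) and 3 of 8 macrophage markers (CD14, TYROBP and CSF1R) lower, against 3.88% of all probes. It called 0 of 7 hepatocyte markers, with 0 of these at an unadjusted p under 0.05, against 24.8% of probes. CSF1R was well above background on no array, and with the block TYROBP was no longer called (adjusted p = 0.0522) while ITGAM was (adjusted p = 0.0402). The mean log2 signal was 6.45 to 6.58 on pre-control and 6.11 to 6.29 on pre-miR-27a arrays over 9 adipocyte markers with all values, and 5.80 to 6.07 against 5.47 to 5.77 over 6 macrophage markers. These means do not stand for each marker. The log2 fold changes of the 10 adipocyte markers ran from -1.74 to 0.75, with 2 above 0 and 8 below, and their median was -0.12. For the 8 macrophage markers they ran from -0.91 to 0.21, with 2 above 0 and 6 below. What part these markers have in the members' values was not tested. All cultures were of the RH36 line, and in bulk samples fewer cells with a transcript and less of it per cell cannot be told apart. A p that misses the threshold does not show equal levels, but the blocked 95% intervals of all 30 members lay within 1 log2 unit of 0, from -0.60 to 0.63, while without the block this held for 14.

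PMVK came nearest to a call. Its log2 fold change was -0.32 ± 0.08 (SE, limma, adjusted p = 0.0699), its pre-miR-27a value was the lower in all 3 pairs, and with a variance trend and robust estimation it passed (adjusted p = 0.0416, in a range of 0.0416 to 0.188 over the alternatives). That setting called 4.56% of probes higher and 4.7% lower, so 1 of 30 members lower is no more than that share. SREBF1 had log2 signals of 14.84, 14.75 and 14.73 in pre-control and 14.89, 15.04 and 15.07 in pre-miR-27a arrays, a log2 fold change of 0.23 ± 0.09 (SE, limma, adjusted p = 0.178). With 75th percentile scaling the SREBF1 value was 0.08 (adjusted p = 0.658). A dimmer probe gave -0.03 ± 0.12 (SE). With the block, the lowest adjusted p was that of FADS1 (limma, 0.0516), at a log2 fold change of -0.27 ± 0.05 (SE), and the other FADS1 probe went the opposite way, at 0.22 ± 0.05 (SE, adjusted p = 0.0785). The 2 FADS1 probes lie at chr11:61323702-61323761 and chr11:61326148-61326207 on hg18, the build of the array files. In that fit PMVK had -0.32 ± 0.07 (SE, adjusted p = 0.0585), IDI1 0.40 ± 0.08 (SE, adjusted p = 0.0589) and EBP -0.33 ± 0.08 (SE, adjusted p = 0.0777).

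Several probes were kept for 14 of the genes, and with no call among them they could differ in direction only. For MVK, LSS, INSIG2, SREBF1, SCD and FADS1, at least 1 dimmer probe lay on the other side of 0 from the brightest. The 4 LSS probes gave log2 fold changes of 0.10, -0.02, -0.27 and -0.62, the last without pre-control replicate 1. The 3 SCD probes gave 0.05, -0.10 and -0.47. All of the LSS and SCD probes had replicate 2 above replicate 1, by 0.82 to 1.20 and by 0.82 to 1.14 log2 units.

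The branch medians lay close together. The median log2 fold change was -0.08 over the 16 sterol genes and -0.09 over the 7 fatty acid genes, a difference of 0.01. In same-numbered pairs the sterol median was 0.01, 0.02 and -0.25 for replicates 1, 2 and 3, and the fatty acid median was 0.07, -0.13 and -0.22. The spread between the 3 pairs was larger than the difference between the branches. Leaving out single arrays moved the sterol median from -0.41, without pre-control replicate 1, to 0.27, without pre-miR-27a replicate 1, and to -0.37 and 0.20 without replicate 2 of pre-miR-27a and of pre-control. In these fits, made without the block, the groups held unlike replicate numbers. Members are not replicates, and no test was made of the branch medians.

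**Figure D4:**
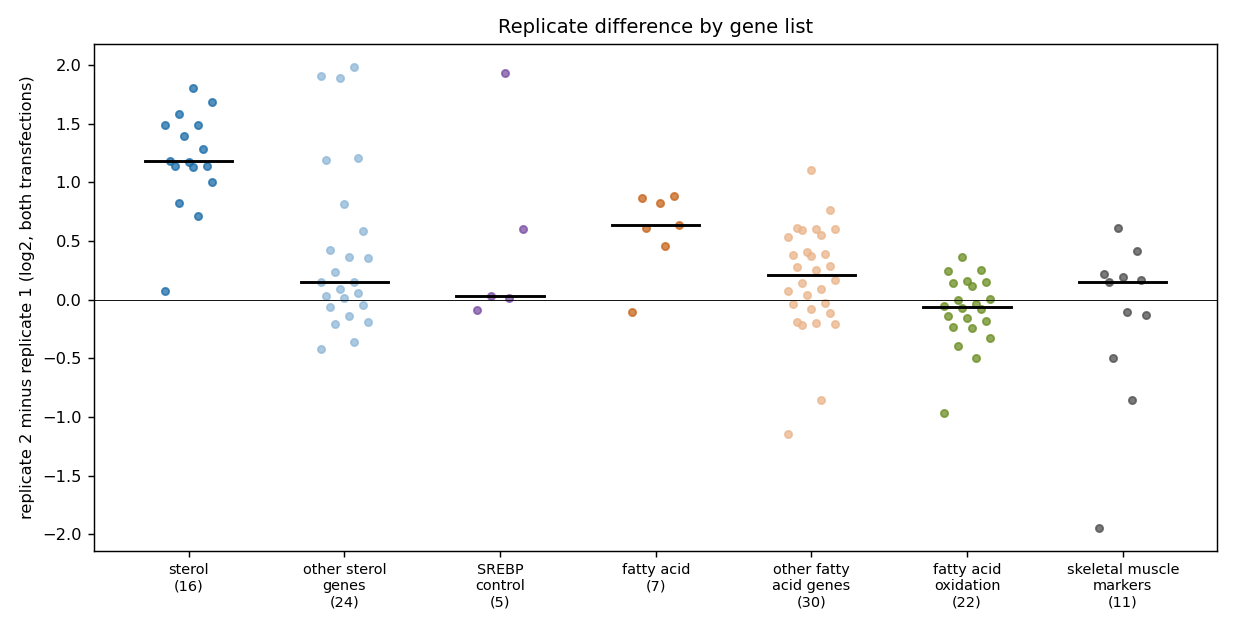
Log2 signal of replicate 2 minus replicate 1, both transfections fitted together (vertical axis), for the sterol, SREBP control and fatty acid members and for other genes of lipid metabolism and muscle markers (horizontal axis, number of genes in brackets). Each point is a gene and each bar the median of its list, which is 1.18 for the sterol members and -0.06 for fatty acid oxidation.

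Other genes of these pathways, listed by function, gave few calls between the transfections. Of 24 other sterol genes with a kept probe, 0 were called higher and 0 lower by limma, against 3.95% and 3.88% of all probes. In the same fit 4 of these genes had an unadjusted p under 0.05, against 24.8% of probes. With the block, 0 of them were called higher and 2 lower (DHDDS and NR1H2). Of 30 other fatty acid genes, 0 were called higher and 2 lower. ELOVL1, an elongase of long saturated chains, had log2 signals of 10.74, 10.86 and 10.61 in pre-control and 10.05, 10.09 and 9.96 in pre-miR-27a arrays, and fell by 0.71 on the log2 scale (SE 0.09, limma, adjusted p = 0.0205). DGAT1, which completes triglycerides, had 11.98, 12.18 and 12.16, and 11.57, 11.70 and 11.72, and fell by 0.44 on the log2 scale (SE 0.09, limma, adjusted p = 0.0487). Both genes had every pre-miR-27a array below every pre-control array. The groups did not overlap for 8 of the 26 other fatty acid genes with all values, against 32.7% of probes. Of 22 genes of fatty acid oxidation, 1 was called higher and 0 lower: CPT2, the carnitine acyltransferase of the inner mitochondrial membrane, had 10.34, 10.12 and 10.07 in pre-control and 10.76, 10.66 and 10.71 in pre-miR-27a arrays, a log2 fold change of 0.53 ± 0.10 (SE, limma, adjusted p = 0.0362). These 3 calls rest on all arrays: leaving out pre-control replicate 1 left 1 call among the other pathway genes and leaving out any other array left 0. Calls fell over the whole array too. With all arrays 1440 probes were called higher and 1416 lower. Without pre-control replicate 1 these counts were 745 and 531, and without pre-control replicate 3 they were 50 and 31. Leaving out any of the other arrays left 0 calls over all probes. With the block, 13 were called: 0 higher and 2 lower of the other sterol genes, 3 and 4 of the other fatty acid genes, and 2 and 2 of fatty acid oxidation. That fit called 7.24% of all probes higher and 7.62% lower.

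Outside the 30, the replicate order of the sterol members was found for 8 of the 24 other sterol genes, again against 7.45% of probes, and a difference of at least 1 log2 unit between replicates 2 and 1 for 5 of them, against 1.73%. This difference was 1.98 log2 units for MSMO1 and 1.21 for SC5D, which act on methyl groups and on a double bond of sterol intermediates, 1.91 for HSD17B7, a sterone reductase, and 1.19 for ERG28. LBR, a sterol reductase, GGPS1, which makes geranylgeranyl diphosphate, and the trafficking genes NPC1 and OSBP were at 0.36, 0.03, 0.36 and -0.20. The median of this difference was 0.15 over the other sterol genes, 0.21 over the other fatty acid genes and -0.06 over fatty acid oxidation. In fatty acid oxidation 14 of 22 genes were lower in replicate 2 than in replicate 1, against 48.3% of all probes.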

How the data were processed

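RNA of 6 samples, 3 pre-control and 3 pre-miR-27a, was hybridized to Agilent 1-colour arrays. The authors deposited spot intensities from Feature Extraction 10.5.1.1, corrected for background within an array but not made comparable between arrays, with quality flags, and a table of log2 values. That deposited log2 table differed by a median of 0.00401 from the quantile-normalized log2 signals computed here (31299 shared probes). Unused columns of per-sample values numbered 0.

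For the report, the processed intensities of non-control spots were taken to log2 and quantile normalized. Values of spots without the found flag were treated as missing and repeated spots averaged, and a probe was kept if at most 1 array lacked it (36469 of 41000). The groups were compared by limma (version 3.58.1, run in R 4.3.3 with package data.table, version 1.17.8), adjusting by Benjamini-Hochberg over the kept probes, at a threshold of 0.05. An exact permutation test of 3 arrays against 3 gives no two-sided p below 0.1, and precision is limited by how few arrays there are. The steps were tested on simulated data, drawn without any difference shared by same-numbered arrays. That test therefore does not show how the fits behave where such a difference is present. A gene is given by its kept probe with the highest mean signal, with other probes named where they differ in direction or call. Of the other lists, genes past the threshold are named, and MSMO1, SC5D, HSD17B7, ERG28, LBR, GGPS1, ITGAM, NPC1, OSBP, DHDDS, NR1H2 and the muscle genes were named after their values were seen. The accessions of 42 of the 47 member probes carry the same symbol in the RefSeq gene table and those of the other 5 are absent from it. Of 119 genes in the other lists, 112 had a kept probe, and 1 of these is not reported here by name. Of 8 hepatocyte markers, 7 had a kept probe and limma called 0, with 0 at an unadjusted p under 0.05. The members and lists were chosen with earlier results of these data known.

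The labels give the replicate numbers, which are also the array positions. Deviations from the group mean correlated at 0.40, 0.46 and 0.41 between arrays of the same number and at -0.27 to -0.12 between arrays of different numbers (31717 probes). The negative values follow in part from the centring, since the deviations of a group sum to zero. The numbers were used for the same-numbered pairs and for the block, which was an alternative. The main limma comparison had no block and took no account of the pairing. The tried alternatives were scaling to the 75th percentile, normexp (offset 50), other filters on dim probes (none, well above background, positive and significant), the replicate block, a variance trend with robust estimation, the deposited log2 table, the mean over a gene's probes, leaving out each array, and SAM with 20 relabellings at the 1.9% that the paper names. SAM was run unpaired and so took no account of the replicate numbers, whereas the paper's results describe a paired SAM. SAM at 5%, the F test of the replicate number and the replicate differences were added after the data were seen. Figures were drawn with matplotlib 3.10.9 in Python 3.11.15.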

Additional observations from a re-analysis of the deposited data

How the results depend on the processing

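With all arrays in use, the count of members called higher stayed at 0 and that called lower at 0, except that a variance trend with robust estimation called 1 lower (PMVK, log2 fold change -0.32, adjusted p 0.0416, with 0.0585 to 0.188 under the other alternatives). That setting called 4.56% of all probes higher and 4.7% lower. The replicate block changed no call of a member and raised the calls among other pathway genes from 3 to 13. Over all probes the block raised the shares called from 3.95% higher and 3.88% lower to 7.24% and 7.62%. Among other pathway genes the mean of all probes gave 5 calls and leaving out single arrays 0 to 1. Leaving out any array but pre-control replicate 1 or 3 left 0 calls over all probes. The F test of the replicate number called 25 members with the variance trend, with normexp and with only probes well above background, and 16 with the positive and significant flag and with the deposited values. It called 0 under every other alternative run. The sterol median of replicate 2 minus replicate 1 was 1.27 with 75th percentile scaling, 1.11 with normexp, 1.25 with the mean of all probes and 1.12 to 1.26 with single arrays left out, where the fatty acid median was 0.59 to 0.78. The group difference of the sterol median was -0.41 to 0.27 with single arrays left out, that of the fatty acid median -0.33 to -0.016, and their difference -0.10 to 0.30. The fits with single arrays left out had no block, so in them the groups held unlike replicate numbers. The cause of the replicate differences was not tested.

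Of the members' log2 fold changes, 20 values turned sign under alternatives with all arrays, none of them called, and 249 kept their sign and their side of the threshold. These were FDFT1 (-0.10), SQLE (-0.0029), LSS (-0.015), SREBF2 (-0.046), ACACA (0.036), SCD (-0.030) and ELOVL6 (0.014) with 75th percentile scaling, ACACA (0.0095) with normexp, and MVK (0.065), LSS (-0.33), INSIG2 (-0.043) and SCD (-0.17) with the mean of all probes. ELOVL6 was at 0.028 without a filter on dim probes and with the positive and significant flag, at 0.027 with the deposited values and at 0.086 with the block, and LPL at 0.26 in the first 3 of these and 0.16 with the block. With single arrays left out, 20 members turned sign in at least 1 case: ACAT2 ran from -0.51 to 0.41, HMGCS1 from -0.73 to 0.31, MVK from -0.37 to 0.30, MVD from -0.60 to 0.23, FDPS from -0.38 to 0.24, FDFT1 from -0.45 to 0.44, SQLE from -0.22 to 0.43, LSS from -0.17 to 0.34, CYP51A1 from -0.65 to 0.083, TM7SF2 from -0.58 to 0.15, NSDHL from -0.40 to 0.15, DHCR7 from -0.72 to 0.12, STARD4 from -0.12 to 0.49, INSIG1 from -0.47 to 0.55, SREBF2 from -0.20 to 0.21, ACACA from -0.24 to 0.22, SCD from -0.22 to 0.26, ELOVL6 from -0.41 to 0.38, LPL from -0.997 to 0.60 and CD36 from -0.67 to 0.57. Probes near background are limited in depth, but all 30 genes were well above it.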
